A study of Mus musculus with 2 samples.

Results

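The 9 genes of endothelial cell-to-cell contacts studied here (Pecam1, Cdh5, Cldn5, Ocln, Tjp1, Jam2, Jam3, F11r and Esam) were followed through liver endothelial cells of control and Maf LSEC-KO mice. They were picked by symbol as 9 of the 32285 genes in the count tables, and all 9 had UMIs in both libraries. Cells were measured by 3′ single-cell RNA sequencing in droplets, where molecules are counted by their unique molecular identifiers (UMIs). Each condition was 1 library made from the pooled livers of 3 mice, after magnetic selection for CD146, the product of Mcam. Maf LSEC-KO mice carried the Clec4g-iCre transgene and floxed Maf alleles, so that recombination was driven by the promoter of a sinusoidal lectin gene. Control mice were littermates with floxed Maf alleles and no Cre, although the sample label calls them WT. The labels give no age, strain or sex for these mice.

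Endothelial cells are held together by junctions in which transmembrane proteins of neighbouring cells bind each other and are tied to the actin skeleton by proteins inside the cell. VE-cadherin (Cdh5) builds adherens junctions, claudin-5 (Cldn5) and occludin (Ocln) belong to tight junctions, the junctional adhesion molecules JAM-A (F11r), JAM-B (Jam2) and JAM-C (Jam3) and the related ESAM (Esam) are immunoglobulin proteins of the same contacts, and PECAM-1 (Pecam1) lies between them. ZO-1 (Tjp1) is a scaffold that links the tight junction proteins among them to the skeleton. Liver sinusoidal endothelial cells (LSECs) are fenestrated and lack the sealed junctions of continuous endothelium, while the endothelium of central veins, portal veins and arteries is continuous. Maf encodes c-Maf, a transcription factor of the basic leucine zipper family that is abundant in LSECs.

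In all, 47681895 UMIs over 5664 barcodes were deposited for control and 89872764 over 7091 for Maf LSEC-KO, and 10 barcode sequences occurred in both. Endothelial barcodes were found by clustering without the 9 junction genes and were split by markers. The sinusoidal class held 4205 control and 3185 Maf LSEC-KO barcodes without a Vwf UMI, with median depths of 8395 and 13938 UMIs. The large-vessel class held 102 control and 237 Maf LSEC-KO barcodes, of which 47 and 135 were central vein-like (led by Rspo3, Selp and Vwf) and 55 and 102 were portal vein and artery-like (with Gja5, Fbln2 and Vwf). All 13 endothelial markers had UMIs in each class, but this is no check, as the endothelial clusters were chosen by these markers. All 13 had UMIs in neutrophil-like barcodes too. Barcodes of the sinusoidal clusters with a Vwf UMI were left out, and these were 22.8% in Maf LSEC-KO but 1.71% in control. With 1 library per condition no difference between conditions could be tested. Levels are UMIs per 1000000 UMIs outside mitochondrial and ribosomal protein genes (CPM), with exact 95% Poisson intervals that cover counting error only. The 9 sinusoidal markers, Clec4g and Stab2 among them, summed to 18864 CPM in control and 5869 CPM in Maf LSEC-KO sinusoidal barcodes, and 4 erythroid genes to 1220 and 13.5 CPM.

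Maf was measured first as the check of the knockout. Its level was 3489 CPM in control and 122 CPM in Maf LSEC-KO sinusoidal barcodes, 28.6-fold lower. In the large-vessel class it was 1002 CPM in control and 14.7 CPM in Maf LSEC-KO barcodes, so that both classes carried little Maf RNA in the knockout library. Of the Maf LSEC-KO sinusoidal barcodes, 79.3% had no Maf UMI, 462 had 1 to 4 and 197 had 5 or more, while 0.571% of control sinusoidal barcodes had none.

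The 9 genes lie on separate chromosomes of the mouse genome (mm10, GENCODE vM21), except for a shared chromosome for Cldn5 and Jam2 and for Jam3 and Esam. Cldn5 spans chr16:18776847-18778262 and Jam2 chr16:84774123-84825928, both on the plus strand. Ocln spans chr13:100496507-100552718 on the minus strand and F11r chr1:171437535-171464603 on the plus strand. Pecam1 (chr11:106654217-106750628), Tjp1 (chr7:65296165-65527781) and Jam3 (chr9:27097384-27155421) are on the minus strand, and Cdh5 (chr8:104101625-104144511) and Esam (chr9:37528078-37538319) on the plus strand. No other counted gene overlapped a junction gene on its own strand, and Gm29682 and Gm48796 overlapped Cdh5 and Jam3 on the other strand.

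RefSeq promoter sequences (GRCm38.p6, 250 bases before to 50 bases after a start site) were held for 4 of the 9 genes, Cldn5, Ocln, Tjp1 and F11r. They were searched on both strands for TGCTGA, the half-site of Maf recognition elements, for TGAGTCA, the element bound by AP-1 factors, which can overlap the half-site, and for AGGAAG, a core bound by ETS factors of endothelial cells. TGCTGA was in 19.5%, TGAGTCA in 5.2% and AGGAAG in 35.4% of all 32851 promoters of this length. TGCTGA and AGGAAG were in none of the 5 windows of these 4 genes, and TGAGTCA was in that of F11r alone. The windows of Cldn5, which was lower in Maf LSEC-KO cells, of Ocln, which was higher, and of F11r, which differed little, are shown 5′ to 3′ with the match in capitals.
Cldn5, chr16:18776597-18776896, plus strand: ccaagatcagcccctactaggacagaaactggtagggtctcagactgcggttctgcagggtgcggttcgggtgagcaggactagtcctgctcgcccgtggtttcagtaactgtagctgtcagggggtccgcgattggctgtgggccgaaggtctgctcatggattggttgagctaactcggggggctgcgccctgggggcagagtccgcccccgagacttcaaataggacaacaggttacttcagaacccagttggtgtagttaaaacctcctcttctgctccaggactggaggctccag
Ocln, chr13:100552669-100552968, minus strand: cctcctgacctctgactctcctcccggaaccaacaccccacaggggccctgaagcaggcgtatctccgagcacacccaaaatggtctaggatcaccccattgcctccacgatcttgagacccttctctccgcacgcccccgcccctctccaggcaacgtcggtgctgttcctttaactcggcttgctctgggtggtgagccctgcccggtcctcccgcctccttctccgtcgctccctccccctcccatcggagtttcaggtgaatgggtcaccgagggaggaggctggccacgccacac
F11r, chr1:171437311-171437610, plus strand: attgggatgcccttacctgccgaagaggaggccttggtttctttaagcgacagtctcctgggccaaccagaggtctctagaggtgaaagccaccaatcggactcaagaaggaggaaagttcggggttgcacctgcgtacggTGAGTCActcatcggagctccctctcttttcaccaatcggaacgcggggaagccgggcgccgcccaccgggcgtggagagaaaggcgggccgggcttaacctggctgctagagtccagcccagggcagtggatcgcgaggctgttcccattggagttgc
These letters describe the windows, and no binding was measured here.

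In sinusoidal cells, the junction genes did not move as one group. Jam2 and Cldn5 were lower in Maf LSEC-KO, Ocln was near 0 in control and present in Maf LSEC-KO, Jam3 and Esam were higher, and Cdh5, Pecam1, F11r and Tjp1 differed from control by 1.13-fold or less. Past a 2-fold limit, 1 of the 9 genes was higher, beside 10.4% of the 9303 genes that reached 10 CPM in control or Maf LSEC-KO, and 2 were lower, beside 4.78%. The median log2 ratio of Maf LSEC-KO over control was 0.11 for the 9 genes and 0.14 for all 9303 genes.

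Cldn5 and Ocln, the claudin and the occludin among the 9, were past 2-fold in opposite directions. Cldn5, the main claudin of endothelium, had 26313 UMIs or 780 CPM (770 to 789) in control, against 12690 UMIs or 322 CPM (317 to 328) in Maf LSEC-KO sinusoidal barcodes. The level was 2.42-fold lower, a log2 ratio of −1.28 (−1.31 to −1.24), and 3.17% of all tested genes had a smaller ratio. Cldn5 had a UMI in 88.4% of control and 77.4% of Maf LSEC-KO barcodes. Every barcode was also thinned to 2700 UMIs, counted over all genes, unlike CPM, which leaves out mitochondrial and ribosomal protein genes. This left 3784 control and 3005 Maf LSEC-KO barcodes and removed 421 and 180 shallower ones. The shares with a Cldn5 UMI were then 77.3% (76.0 to 78.7) and 43.9% (42.1 to 45.7).

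Ocln, a tetraspan protein best known from epithelial tight junctions, had 7 UMIs in all control sinusoidal barcodes, 0.207 CPM (0.0834 to 0.427). In Maf LSEC-KO it had 485 UMIs, 12.3 CPM (11.2 to 13.5). The ratio was 59.4-fold, with an interval from 28.6 to 148-fold that rests on the 7 control UMIs. Over other settings its log2 ratio, 5.89, ranged from 4.51 with barcodes thinned to 6.70 with the 9 genes kept in the clustering, so the size of the ratio is not fixed by these data. Its level in Maf LSEC-KO remained low, with a UMI in 12.7% of barcodes and in 2.06% after thinning. In cholangiocyte-like cells of the same library, which are epithelial, Ocln was at 111 CPM. The summed level of the 6 cholangiocyte markers was 14.3 CPM in control and 10.0 CPM in Maf LSEC-KO sinusoidal barcodes, with UMIs of all 6 in both.

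Tjp1, the cytoplasmic scaffold, was at 347 CPM (340 to 353) in control, against 305 CPM (300.02 to 311) in Maf LSEC-KO, 1.13-fold lower. The share of barcodes with a Tjp1 UMI at 2700 UMIs was 52.1% in control and 46.5% in Maf LSEC-KO.

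Among the immunoglobulin adhesion molecules, Jam2 differed most. JAM-B binds JAM-C on the neighbouring cell, and their genes were apart in opposite directions. Jam2 was at 338 CPM (332 to 345) in control, against 73.7 CPM (71.0 to 76.4) in Maf LSEC-KO sinusoidal barcodes, 4.59-fold lower (4.41 to 4.78), and its share of barcodes at 2700 UMIs was 47.1% against 14.04%. Of all tested genes, 1.33% had a smaller ratio. With the Vwf barcodes kept, the log2 ratio was −1.88 in place of −2.20. With the clusters led by erythroid or other foreign RNA left out it was −2.40. That setting kept 1843 of 4205 control but 2804 of 3185 Maf LSEC-KO sinusoidal barcodes. Jam3 was at 10.1 CPM (9.03 to 11.2) in control, against 18.8 CPM (17.5 to 20.3) in Maf LSEC-KO, 1.87-fold higher (1.64 to 2.13), at a low level in both.

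Esam was at 515 CPM (507 to 522) in control, against 699 CPM (691 to 707) in Maf LSEC-KO, 1.36-fold higher (1.33 to 1.38). The share of barcodes with an Esam UMI after thinning was 66.8% against 74.2%. F11r was at 245 CPM (240 to 251) in control, against 265 CPM (260 to 270) in Maf LSEC-KO, 1.08-fold higher, but its thinned share was 41.6% against 40.1%, and no order was read from it. Its direction turned when the UMIs of all genes, which also set the depth of thinning, or TMM factors set the scale.

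The adherens junction and pan-endothelial genes were close to control. Cdh5 was at 988 CPM (978 to 999) in control, against 1067 CPM (1057 to 1077) in Maf LSEC-KO, and Pecam1 at 710 CPM (701 to 719) and 778 CPM (769 to 787). Both ratios, 1.08-fold and 1.10-fold, were smaller than the median ratio of all tested genes, and both directions turned with the same scalings as that of F11r. Cdh5 had a UMI in 86.6% and 85.5% and Pecam1 in 79.0% and 77.6% of thinned control and Maf LSEC-KO barcodes.

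Free RNA in the droplets sets a background for these shares. In neutrophil-like cells, with median depths of 3863 and 4310.5 UMIs, Cldn5 had a UMI in 16.7% of 36 thinned control and 2.47% of 81 thinned Maf LSEC-KO barcodes, and Jam2 in 5.56% and 0 of 81. Taking 3 counts as the limit that a count of 0 allows, the latter share could be up to 3.70%. The sinusoidal shares of Cldn5 and Jam2 lay above these values in both libraries. Neutrophil-like cells held the least endothelial RNA of the immune classes, so this background is the lowest of them. In control, the 13 endothelial markers summed to 1552 CPM there, against 8138 CPM in B cell-like cells. Ocln had 0 UMIs in neutrophil-like cells of either library, which by the same limit of 3 counts allows up to 18.7 CPM in control and 7.88 CPM in Maf LSEC-KO, the latter below its sinusoidal level of 12.3 CPM. The Jam3 shares, 2.11% and 3.79%, lay under the upper bound of 6.69% of the interval in Maf LSEC-KO neutrophil-like cells. By CPM, Jam3 had 1 UMI in these cells, 2.63 CPM (0.0665 to 14.6), below its 18.8 CPM in Maf LSEC-KO sinusoidal barcodes. In control its 10.1 CPM was not above the 18.7 CPM that 0 UMIs in neutrophil-like cells allow, but was above the 0.665 CPM (0.0168 to 3.71) of control macrophage-like cells. The mean number of the 9 genes detected per thinned sinusoidal barcode was 4.53 in control and 3.88 in Maf LSEC-KO.

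**Figure D1:**
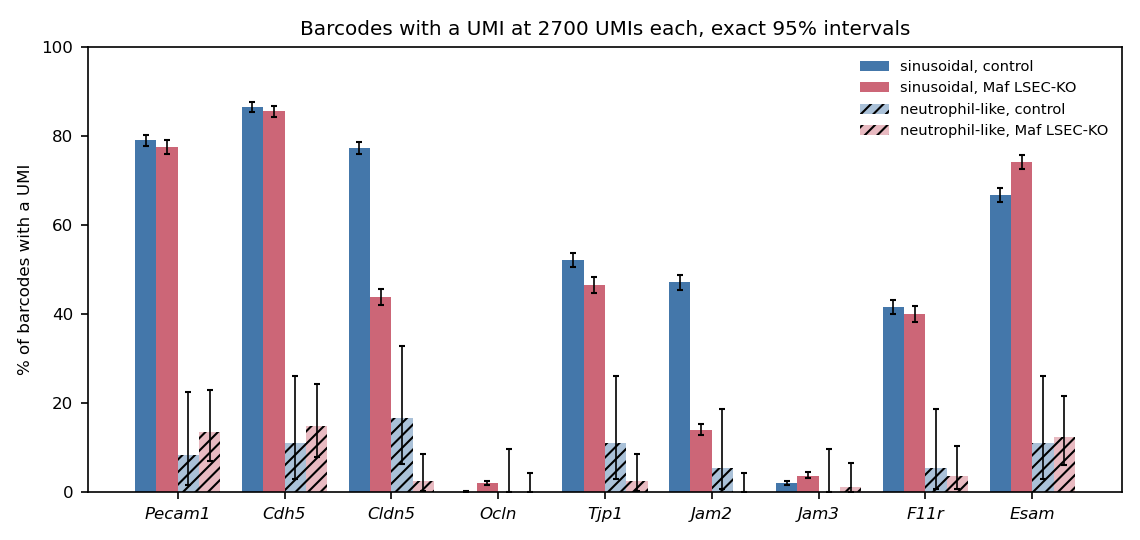
Percentage of barcodes with a UMI of each junction gene (y axis) in sinusoidal (solid bars) and neutrophil-like (hatched bars) barcodes of the control (blue) and Maf LSEC-KO (red) library, each barcode thinned to 2700 UMIs; error bars are exact 95% binomial intervals. Cldn5 stands at 77.3% in control and 43.9% in Maf LSEC-KO sinusoidal barcodes and Jam2 at 47.1% and 14.04%, Esam stands at 66.8% and 74.2%, and Cdh5 and Pecam1 at nearly equal heights.

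The large vessels gave the level of each gene in continuous endothelium of the same livers. In control, Jam2 was the gene that separated the classes most, at 1365 CPM (1297 to 1436) in large-vessel and 338 CPM in sinusoidal barcodes, 4.03-fold higher. F11r (383 against 245 CPM), Pecam1 (1066 against 710 CPM) and Tjp1 (461 against 347 CPM) were also higher in large vessels, Cdh5 was alike at 979 against 988 CPM with overlapping intervals, and Esam (392 against 515 CPM) and Cldn5 (419 against 780 CPM) were lower. The Cldn5 level averages 102 CPM in central vein-like and 675 CPM in portal vein and artery-like barcodes, and its log2 ratio of −0.90 ranged from −2.95 to −0.52 over settings. Jam3 was at 9.06 against 10.1 CPM with overlapping intervals, and Ocln had 2 UMIs in control large-vessel barcodes. Of the 8 genes at 10 CPM or more, 1 was past 2-fold higher in large vessels, beside 6.37% of all genes tested, and 0 were past 2-fold lower, beside 5.33%.

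In Maf LSEC-KO, Jam2, F11r, Pecam1 and Tjp1 were again higher and Esam and Cldn5 lower in large vessels, and the ratio of Jam2 was larger. Jam2 was at 1086 CPM (1046 to 1127) in large-vessel and 73.7 CPM in sinusoidal barcodes, 14.7-fold apart. The sinusoidal class leaves out barcodes with a Vwf UMI, 22.8% in Maf LSEC-KO and 1.71% in control. With them kept, the sinusoidal Jam2 log2 ratio between the conditions was −1.88 in place of −2.20. The 14.7-fold ratio was not recomputed with them. Jam2 was the 1 gene of 9 past 2-fold higher in large vessels, beside 5.98% of all genes, and 0 were past 2-fold lower, beside 6.59%. Ocln was at 6.57 CPM (3.83 to 10.5) in large-vessel and 12.3 CPM in sinusoidal barcodes of this library.

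Between the conditions, the pooled large-vessel cells differed like sinusoidal cells in Cldn5 and Esam and less in Jam2. Central vein-like barcodes were 47 in control and 135 in Maf LSEC-KO, against 55 and 102 portal vein and artery-like ones. The part of this unlike mix in the pooled ratios was not tested. Cldn5 was at 419 CPM (382 to 459) in control, against 188 CPM (171 to 205) in Maf LSEC-KO large-vessel barcodes, 2.23-fold lower, and Esam at 392 CPM (356 to 431) and 523 CPM (495 to 551), 1.33-fold higher. Jam2 was 1.26-fold lower (1.18 to 1.34) where it had been 4.59-fold lower in sinusoidal cells; the difference between these ratios was not tested. Jam3, with 10 control and 52 Maf LSEC-KO UMIs, was 2.22-fold higher (1.12 to 4.90). The counts past 2-fold were 1 of 8 genes higher, beside 3.92%, and 1 lower, beside 2.45% of the 9233 genes tested. Ocln, with 2 control and 17 Maf LSEC-KO UMIs, had a ratio of 3.63-fold with an interval from 0.861 to 32.4-fold, which includes no difference. Cdh5 was 1.12-fold higher (1.05 to 1.20) and Pecam1 1.08-fold higher (1.01 to 1.16), the latter turning to lower with doublets kept. The intervals of Tjp1, 1.11-fold lower, and F11r, 1.04-fold lower, included no difference.

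**Figure D2:**
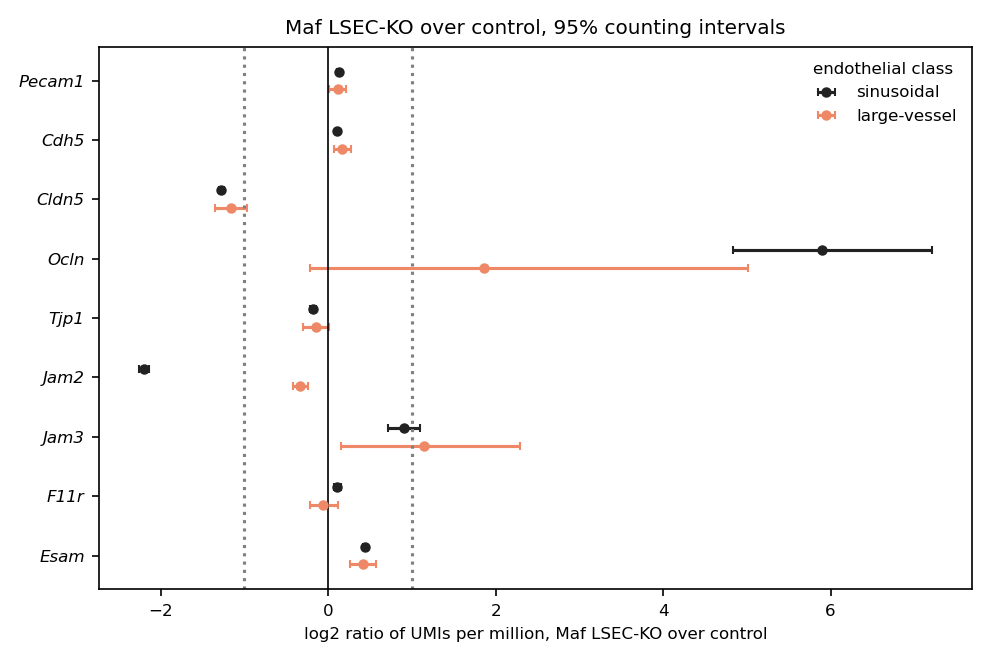
Log2 ratio of CPM, Maf LSEC-KO over control (x axis), for each junction gene (y axis) in sinusoidal (black) and large-vessel (orange) barcodes, with exact 95% intervals of the counts; dotted lines mark 2-fold. Jam2 lies at −2.20 in sinusoidal and at −0.33 in large-vessel barcodes, Cldn5 at −1.28 and −1.16, and Ocln at 5.89 with the widest sinusoidal interval.

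Within the control large vessels, Cldn5 was the gene that separated central from portal cells most. In control, Cldn5 was at 102 CPM (75.3 to 134) in central vein-like and 675 CPM (612 to 744) in portal vein and artery-like barcodes. In Maf LSEC-KO it was at 28.6 CPM (20.6 to 38.9) and 385 CPM (350 to 422). By CPM, the central vein-like levels lay within the intervals of neutrophil-like cells in control (76.1 to 192 CPM) and in Maf LSEC-KO (4.27 to 30.7 CPM). The neutrophil-like barcodes were shallower, with medians of 3863 and 4310.5 UMIs against 11476 and 12091 in central vein-like barcodes. With such unlike depths, these CPM values cannot decide whether Cldn5 was above background in central vein-like cells. In portal vein and artery-like cells alone, Cldn5 was 1.75-fold lower in Maf LSEC-KO (1.53 to 2.01) and so not past 2-fold. Central vein-like cells were 47 of 102 control and 135 of 237 Maf LSEC-KO large-vessel barcodes.

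Jam2 had the opposite order of levels, with 1518 CPM (1412 to 1631) in central vein-like and 1241 CPM (1154 to 1333) in portal vein and artery-like control barcodes. The values in Maf LSEC-KO were 1395 CPM (1335 to 1458) and 702 CPM (655 to 752). Central vein-like levels overlapped between the libraries, while portal vein and artery-like levels did not and were 1.77-fold apart. Pecam1 ran from central (1208 CPM in control, 1210 CPM in Maf LSEC-KO) over portal (952 and 1084 CPM) to sinusoidal barcodes in both libraries. Cdh5 lay between 973 and 988 CPM in all 3 control classes, with overlapping intervals.

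**Figure D3:**
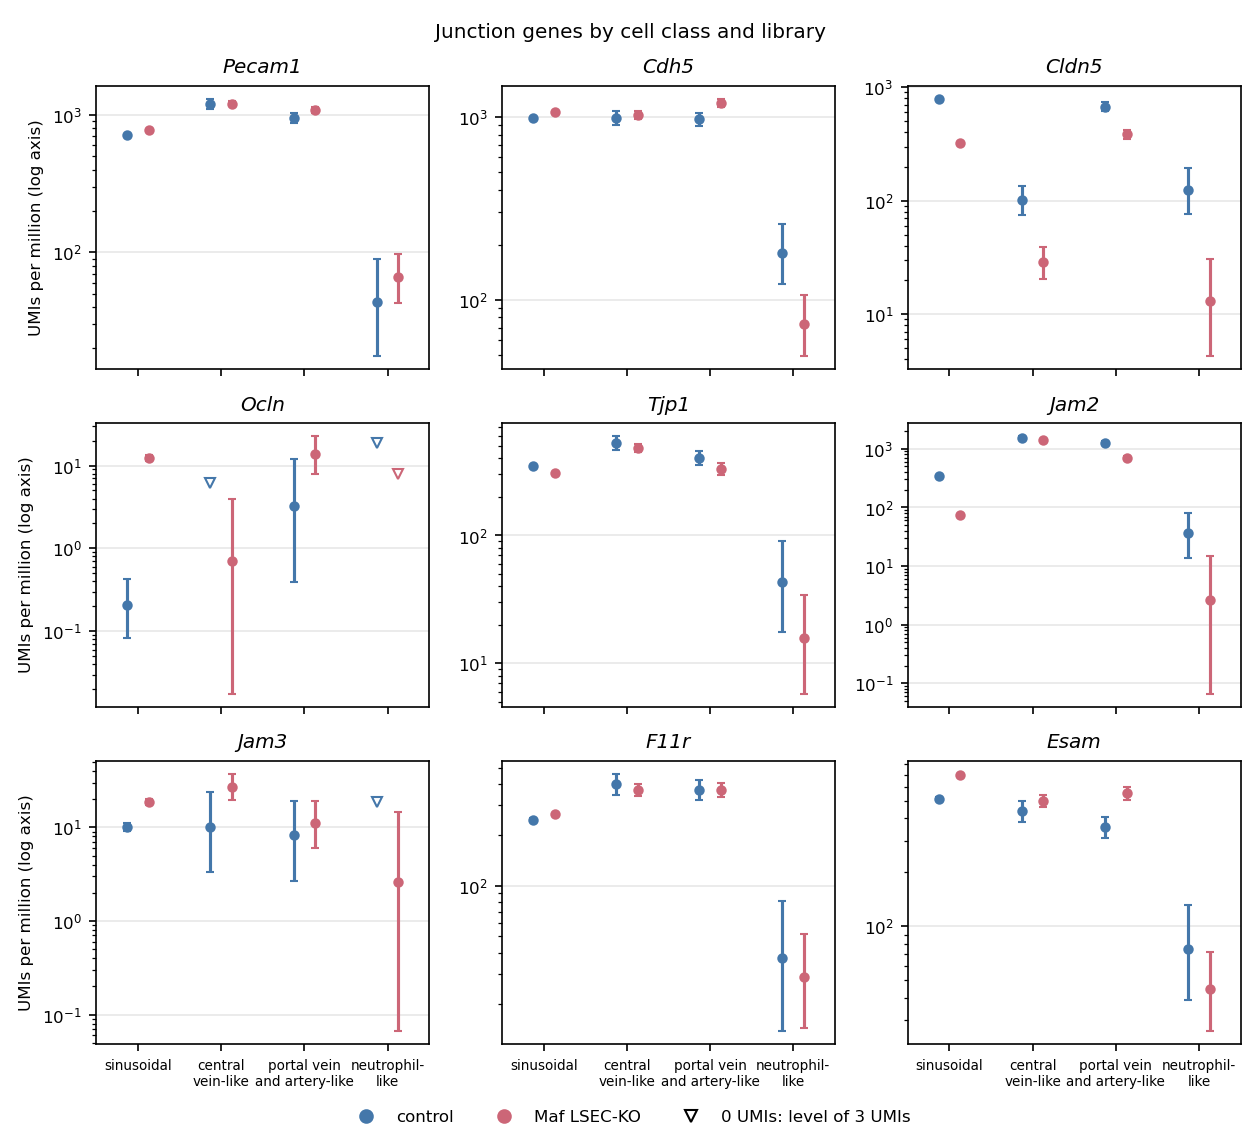
CPM on a log axis (y axis, its own range in each panel) of each junction gene in sinusoidal, central vein-like, portal vein and artery-like and neutrophil-like barcodes (x axis) of the control (blue) and Maf LSEC-KO (red) library, with exact 95% Poisson intervals; open triangles stand at 3 counts for counts of 0. Cldn5 in central vein-like barcodes sits at the height of neutrophil-like barcodes, and Jam2 is above 700 CPM in both vessel classes of both libraries.

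The Maf LSEC-KO library held sinusoidal barcodes that still carried Maf RNA, which allowed a comparison inside 1 library. The 197 barcodes with 5 or more Maf UMIs had 2088 CPM of Maf and a median of 9920 UMIs, and the 2526 without had a median of 13724.5 UMIs. Cldn5 was at 629 CPM (595 to 665) in the former and 308 CPM (302 to 315) in the latter, and Jam2 at 146 CPM (130 to 164) and 70.4 CPM (67.5 to 73.5). Ocln was at 5.04 CPM (2.42 to 9.27), from 10 UMIs, and 12.2 CPM (10.99 to 13.5). The 462 barcodes with 1 to 4 Maf UMIs had Cldn5 at 297 CPM, Jam2 at 67.4 CPM and Ocln at 14.8 CPM, and stood with those without Maf. Between 0 and 5 or more Maf UMIs, 1 of the 9 genes was past 2-fold higher, beside 6.93% of all genes, and 2 were past 2-fold lower, beside 4.24%.

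Barcodes with 5 or more Maf UMIs did not equal the control library in all genes. Cldn5 was 1.24-fold lower (1.17 to 1.31) and Jam2 2.31-fold lower (2.06 to 2.61) than in control, Cdh5 and Esam were 1.19-fold (1.14 to 1.24) and 1.20-fold higher (1.13 to 1.27), and F11r (1.001-fold, 0.912 to 1.10) and Tjp1 (0.935-fold, 0.863 to 1.01) had intervals that included no difference. Ocln, with 10 UMIs against 7 in control, was 24.3-fold higher (8.35 to 75.2). Maf itself was 1.67-fold lower in these barcodes than in control. Whether free RNA of the other cells of the pool adds to these levels was not tested.

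**Figure D4:**
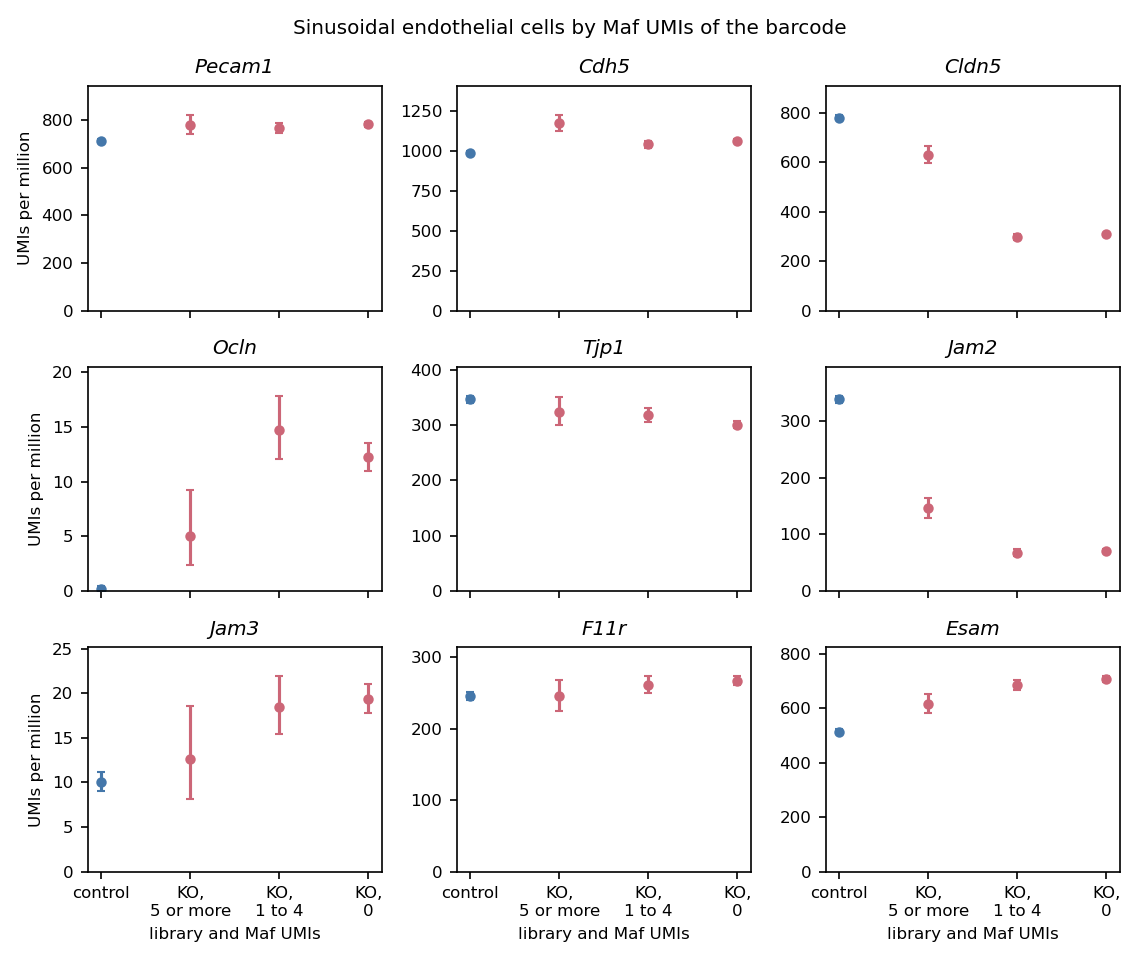
CPM of each junction gene (y axis, from 0) in control sinusoidal barcodes (blue) and in Maf LSEC-KO sinusoidal barcodes with 5 or more, 1 to 4 and 0 Maf UMIs (red), with exact 95% Poisson intervals. Cldn5 steps from 780 over 629 to 297 and 308 CPM and Jam2 from 338 over 146 to 67.4 and 70.4 CPM, while Pecam1, Tjp1 and F11r are nearly level.

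The levels were also read over clusters, which were made without the 9 junction genes and are described here with all their barcodes. Sinusoidal clusters of at least 30 barcodes numbered 12 in control and 14 in Maf LSEC-KO, of which 4 had Maf above 1000 CPM and 10 below 100 CPM. Cldn5 ranged from 238 to 1012 CPM over the control clusters, from 284 to 828 CPM over the 4 clusters with Maf and from 146 to 403 CPM over the 10 without, so that the ranges overlapped. Jam2 ranged from 117 to 865 CPM in control, from 91.8 to 218 CPM over the 4 and from 55.2 to 210 CPM over the 10, which overlapped too. The 4 clusters with Maf were small in this library, with 31 to 52 barcodes each. Ocln was between 6.99 and 15.6 CPM in each of the 10, between 0 and 6.96 CPM in the 4 and at most 2.26 CPM in a control cluster. Jam3 stood out in 1 Maf LSEC-KO cluster of 66 barcodes led by Sparcl1 and Igfbp3, at 150 CPM, where Pecam1 (1384 CPM) and Cdh5 (1699 CPM) were also at their highest; it was chosen for mention after its values were seen.

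Within the control lobule, sinusoidal barcodes were ordered by a score from 6 central genes (Wnt2, Wnt9b, Rspo3, Kit, Cdh13 and Thbd) and 6 portal genes (Dll4, Efnb2, Ltbp4, Msr1, Ntn4 and Adam23). The 4175 barcodes with a UMI of any of these were cut into 4 ranges of 1043 or 1044, and 531 lay within 0.02 of a limit. From the most portal to the most central range, Cldn5 was at 655, 771, 828 and 838 CPM, 1.28-fold higher at the central end. The most portal range was also the shallowest, with a median of 5810.5 UMIs against 8628 to 9267 in the others, and its part in these values was not tested. The log2 ratio of Cldn5 between the ends, 0.36, ranged from 0.17 to 0.46 over 17 other settings. It was lowest with clusters led by RNA of other cells left out, a setting that kept 1843 of 4205 control sinusoidal barcodes.

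Jam2 was highest at the central end, at 323, 293, 294 and 458 CPM from portal to central. Over the clusters, Jam2 was at 865 CPM in the 192 control barcodes of a cluster led by Cdh13, Wnt9b and Rspo3 and at 812 CPM in the 187 of a cluster led by Msr1 and Ntn4, and at 368 CPM or less in the other 10 control clusters. Both values lay between the Jam2 levels of the sinusoidal and the large-vessel class. With Msr1 and Cdh13 left out of the score, Jam2 was 1.43-fold higher at the central end, against 1.42-fold with them. Cut into 3 ranges, the score gave 1.27-fold. Across 17 other settings the log2 ratio of Jam2, 0.50, ranged from 0.35 to 0.77.

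Jam3, at its low level, was also higher at the central end. It had 6.89 CPM (5.03 to 9.22) at the portal and 14.6 CPM (12.1 to 17.4) at the central end, 2.11-fold apart. Its log2 ratio, 1.08, ranged from 0.79 to 1.59 over 17 other settings and was past 2-fold in 9 of them. Esam was 1.14-fold higher at the central end with its highest value in the third range, 551 CPM. Pecam1, Cdh5, F11r and Tjp1 differed by less than 1.10-fold between the ends, and Ocln had too few UMIs to be placed.

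**Figure D5:**
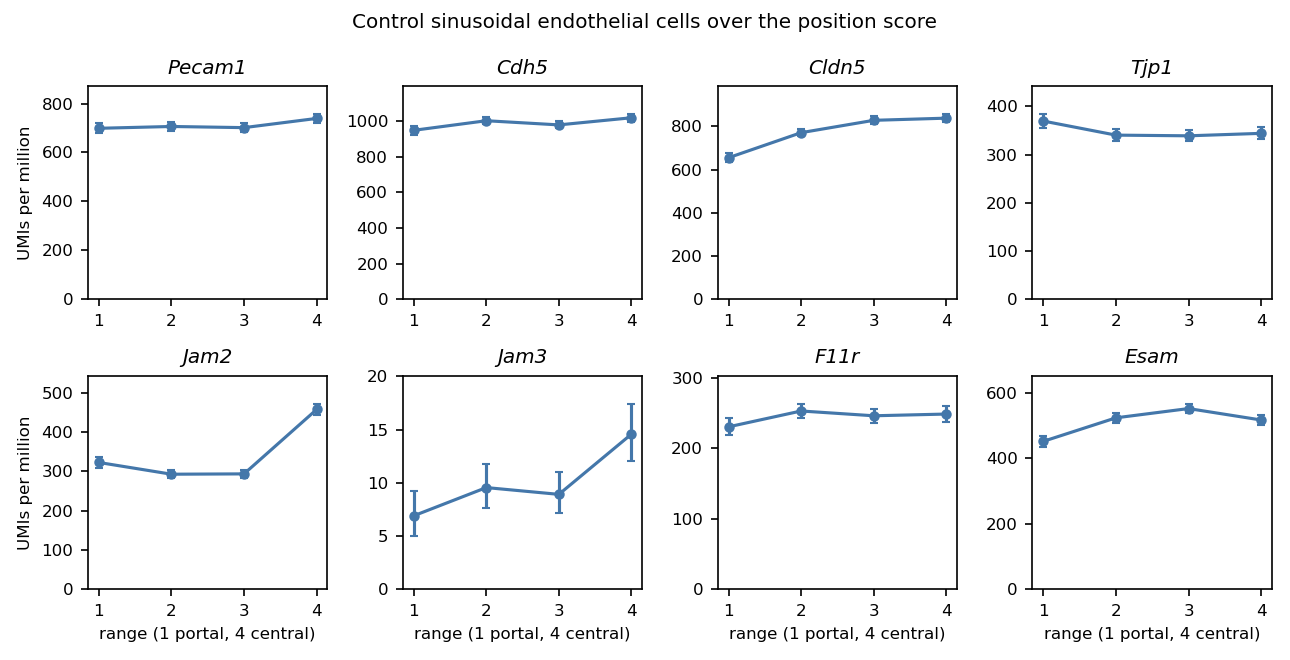
CPM of 8 junction genes (y axis, from 0) over 4 equal ranges of the position score in control sinusoidal barcodes (x axis, 1 the most portal and 4 the most central), with exact 95% Poisson intervals. Cldn5 climbs from 655 to 838 CPM, Jam2 is at 458 CPM in range 4 and at 323 CPM or less in the other 3, and Cdh5 and Pecam1 are nearly flat.

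Outside the endothelium, the members divided by cell type. A cholangiocyte-like cluster was named in the Maf LSEC-KO library alone (37 barcodes). Control held cholangiocyte RNA too, as the 6 cholangiocyte markers summed to 10841 CPM in its 21 barcodes named stellate-like. In the cholangiocyte-like cells, F11r was at 519 CPM, Tjp1 at 149 CPM and Ocln at 111 CPM. Pecam1, Cdh5, Cldn5, Jam2, Jam3 and Esam were between 3.82 and 28.6 CPM there. F11r and Ocln were thus higher in these epithelial cells than in any endothelial class of the library. Macrophage-like cells had Cdh5 at 476 CPM in control and 432 CPM in Maf LSEC-KO and Cldn5 at 222 and 32.3 CPM. B cell-like cells had Cldn5 at 500.2 and 80.6 CPM and Jam2 at 300.1 and 19.0 CPM. Endothelial RNA in these barcodes was not removed, and its part in these values was not tested.

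Over the 16 combinations of library and cell class with at least 30 barcodes, the genes with the pattern most like a member were found by Pearson's r of log2(CPM + 1). Points of 1 library share its free RNA and depth, and r is a description. Pecam1 was most like Nos3 (r = 0.98) and Fgd5 (0.98), Cdh5 like Scarf1 (0.99) and Ggta1 (0.98), Esam like Lrrc32 (0.99) and Hecw2 (0.98), and Tjp1 like Fermt2 (0.99) and Cnn3 (0.98). Jam2 was most like Cdh13 (0.96) and Tek (0.95), and F11r like Lamb2 (0.97) and Nfib (0.96). Cldn5 had no closer gene than Igfbp4 (0.88) and Btnl9 (0.88), and Ocln none closer than Llgl2 (0.88) and Tor2a (0.86). Among the members, Pecam1, Cdh5 and Esam were most alike (0.91 to 0.95), and Ocln was between −0.37 and 0.43 with every other member.

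A list of 64 further genes of tight, adherens and gap junctions, chosen with earlier results of these data known, was read in the same way. In sinusoidal cells 34 of them had at least 10 CPM in either library; 4 were past 2-fold higher, beside 10.4% of all genes tested, and 4 lower, beside 4.78%, in Maf LSEC-KO, and their median log2 ratio was 0.09. Of those past 2-fold with at least 50 CPM, Cdh13, the GPI-anchored T-cadherin, was 16.5-fold lower (146 CPM in control, 8.86 CPM in Maf LSEC-KO), Gja1, the gap junction protein connexin 43, was 5.49-fold lower (131 and 23.9 CPM), and Ptprb, the phosphatase VE-PTP that acts on VE-cadherin and Tie2, was 2.55-fold lower (5322 and 2088 CPM). Nectin2, an adherens junction adhesion molecule, was 2.20-fold higher (86.9 and 191 CPM) and Mcam 2.85-fold higher (127 and 362 CPM). Of those below 50 CPM, named after their values were seen, Pcdh1 and Gjc1 were higher and Cgnl1 was lower. Mcam encodes the antigen by which the cells were selected, and the effect of this selection on its levels cannot be told apart from that of the genotype.

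The same genes were read in large-vessel cells, where the difference of their ratios from those in sinusoidal cells was not tested. Between the conditions, Cdh13 was 1.44-fold lower, Gja1 1.13-fold lower and Ptprb 1.23-fold lower there, and Nectin2 and Mcam were 1.18-fold and 1.11-fold higher, the intervals of Gja1, Nectin2 and Mcam including no difference. Of 38 tested genes of the list, 2 (Plekha7 and Pcdh1) were past 2-fold higher, beside 3.92% of all genes, and 0 lower, beside 2.45%. In control, 10 of 37 were past 2-fold higher, beside 6.37% of all genes, and 1 lower, beside 5.33%, in large-vessel than in sinusoidal barcodes, and those at 50 CPM or more were led by Gja5, connexin 40 of arteries, at 132 against 0.474 CPM, with Cdh13 3.75-fold, Heg1 3.74-fold, Cgnl1 3.01-fold and Gja4 2.64-fold higher. Pcdh12 was at 95.1 CPM in large-vessel and 285 CPM in sinusoidal barcodes. Unlike the 9 genes, the 64 were not taken out of the clustering that made these classes. Gja5 was itself among the leading genes of the portal vein and artery-like cluster. The counts between the classes are thus not independent of how the classes were made.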

How the data were processed

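The deposited counts, which the authors made with Cell Ranger 6.0.2 on mm10, are whole UMI numbers per gene and barcode without normalization, and the lowest barcode total is 500. Mean empty-droplet counts, which the authors subtracted later, are still in them. The genes and lists were chosen with earlier results of these data known.

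Barcodes with 1500 UMIs and 750 genes were clustered per library with Seurat 5.3.0 (R 4.3.3), with 16 (control) and 20 (Maf LSEC-KO) components and resolution 0.3, without the 9 genes. Scrublet (scanpy 1.11.5) marked 0 doublets by its own limit, so the 225 and 308 highest scores were removed at a rate of 0.8% per 1000 barcodes. Endothelial clusters had at least 7 of 13 markers in 50% of barcodes. Their barcodes were clustered together (22 components, resolution 2, set after the data were seen). Large-vessel clusters had at least 3 of 12 markers among their 50 leading genes and Vwf in 50% of barcodes; clusters with 4 markers of another cell type were set aside, and barcodes with a Vwf UMI left the sinusoidal class. Other clusters were named from 3 or more markers.

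UMIs were summed per class. Intervals are exact (scipy 1.17.1): Poisson, conditional binomial for ratios, Clopper-Pearson for shares. A count of 0 was given 3 counts when all genes were compared. The 3 mice of a pool are not separate samples, and cells are not replicates, so no test was made. Genes named beyond the 9 were junction genes of at least 50 CPM past 2-fold, the 2 nearest by pattern, markers, and Maf. The genes nearest to Jam3 are not reported here. The calculation of ratios was tested on simulated data.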

Additional observations from a re-analysis of the deposited data

How the results depend on the processing

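No paired analysis was possible because each condition is 1 library without a replicate number, and leaving out a replicate was not possible for the same reason. The 3 junction genes past 2-fold in sinusoidal cells, Cldn5, Jam2 and Ocln, stayed past it under all 17 settings that recompute their ratio, and the count, which also asks for a minimum level, lay between 2 and 4 over 20 settings. The median log2 ratio of the 9 genes, 0.11, was -0.0800 with the UMIs of all genes as the scale, 0.00483 with median-of-ratios factors, -0.0255 with TMM (edgeR 4.0.16), 0.194 as a mean over cells, 0.184 without cycling clusters and 0.0617 without clusters led by RNA of other cells, the last chosen after seeing the data; the directions of Cdh5, Pecam1 and F11r turned with the UMIs of all genes and with TMM. Leaving out the clusters led by RNA of other cells kept 1843 of 4205 control and 2804 of 3185 Maf LSEC-KO sinusoidal barcodes. The median of ratios and TMM shift all sinusoidal ratios by 0.11 and 0.14 on the log2 scale. The count past 2-fold in large-vessel cells, 2, was 1 as a mean over cells and 1 with doublets kept, where no portal vein and artery-like cluster was found. Of the 64 further junction genes, 8 were past 2-fold, against 24 with no minimum level and 5 at 50 CPM. The sinusoidal Jam2 log2 ratio ranged from −2.40 to −1.88, the latter with Vwf barcodes kept, that of Cldn5 from −1.47 to −1.15 and that of Ocln from 4.51 to 6.70. The large-vessel Jam2 ratio ranged from −0.77 (both libraries clustered at resolution 1) to −0.13. Cldn5 in control large-vessel over sinusoidal cells, −0.90, ranged from −2.95 (doublets kept) to −0.52 and was past 2-fold in 4 of 15 settings, and the log2 ratio of Jam3 in large vessels was 2.56 with cells thinned. Ocln rests on 7 UMIs in control sinusoidal and Jam3 on 10 in control large-vessel cells.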
